A study of Homo sapiens with 8 samples.

Results

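GATA2, GATA3, GATA4, GATA5, GATA6 and the noncoding gene GATA6-AS1 were followed through 6 lists of genomic regions made by capturing DNA with RNA oligos. The members were every region whose gene name in the authors' lists was one of these 6 genes, either as a gene the region overlapped or, with a direction mark, as a gene to one side. This rule found 78 of the 327994 regions listed. Of these, 34 named a member as overlapped and 44 as flanking, and 67 were captured and 11 control regions. Captured lists were the longer ones genome-wide too, with 104786 regions against 36330 control regions for the oligo GATA6-AS TFR1. For MEG3 TFR1 the sizes were 89739 against 12649, and for MEG3 TFR2 they were 73546 against 10944. The split of 67 to 11 is therefore not read as a trait of these genes. Of the flanking regions 2 lay inside the gene's RefSeq span all the same, and the others lay 853 bp to 99085 bp from the gene, 34 on its lower-coordinate side and 8 on the other. Regions were also placed by their coordinates in the RefSeq spans of the genes, because the 2 ways of counting differed.

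The DNA came from H1 cells, a line of human embryonic stem cells, and had been freed of RNA and sonicated to 200 to 300 bp. In each reaction 6 to 7 µg of it was mixed for 1 h at 37 °C with 20 pmol of a biotinylated RNA oligo, and DNA held by the RNA was taken out on streptavidin beads and released with RNase. There were 4 groups of 2 libraries, from 2 independent experiments: the oligo GATA6-AS TFR1, named for the antisense transcript of GATA6; the oligos MEG3 TFR1 and MEG3 TFR2, named for the long noncoding RNA MEG3; and a control with no oligo. All groups used purified DNA outside the cell, of the same line. No expression was measured, so the labelled cell type could not be checked against marker genes, and genes are named below only for where the regions lie. For each oligo the authors gave a captured list, of regions higher with it than without, and a control list, of regions lower with it, and 1 log2 ratio of oligo over no oligo for every region. Those ratios are the authors' own values. The lists give neither library values nor read totals, so replicate error and depth are unknown, and no difference below was tested. The 3 comparisons also share the no-oligo libraries.

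GATA factors are transcription factors that bind DNA through a pair of zinc fingers. GATA2 and GATA3 are best known from blood cell formation, GATA2 in stem and progenitor cells and GATA3 in T cells, while GATA4, GATA5 and GATA6 act in heart and endoderm. In embryonic stem cells GATA6 and GATA4 are low and turn on as cells take an endoderm fate. GATA6-AS1 is a long noncoding RNA transcribed away from GATA6. An RNA can pair with intact duplex DNA in a triplex, occupying the major groove along a run of purines, and runs of purines on one strand are runs of pyrimidines on the other.

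5 promoter windows are printed from the RefSeq table of GRCh38.p14. Each runs from 250 bases before to 50 bases after a start, read 5′ to 3′ on the strand of the gene. They also hold the longest runs among the members' windows, so they do not show how runs relate to capture. Only the windows of the last GATA3 start and the inner GATA2 start were overlapped by a captured region. GATA6 and GATA6-AS1 are the locus the first oligo is named for, the windows at the first and last listed starts of GATA3 lay beside or under captured regions, and the inner GATA2 window was touched by one. Capitals mark the longest unbroken run of purines or of pyrimidines in the window.
GATA6, chr18:22169339-22169638, plus strand: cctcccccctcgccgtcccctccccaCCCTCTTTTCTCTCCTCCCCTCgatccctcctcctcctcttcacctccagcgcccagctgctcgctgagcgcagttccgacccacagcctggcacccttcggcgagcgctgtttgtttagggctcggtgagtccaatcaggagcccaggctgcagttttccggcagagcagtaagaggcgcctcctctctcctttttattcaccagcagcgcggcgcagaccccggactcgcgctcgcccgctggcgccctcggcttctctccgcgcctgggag
GATA6-AS1, chr18:22168919-22169218, minus strand: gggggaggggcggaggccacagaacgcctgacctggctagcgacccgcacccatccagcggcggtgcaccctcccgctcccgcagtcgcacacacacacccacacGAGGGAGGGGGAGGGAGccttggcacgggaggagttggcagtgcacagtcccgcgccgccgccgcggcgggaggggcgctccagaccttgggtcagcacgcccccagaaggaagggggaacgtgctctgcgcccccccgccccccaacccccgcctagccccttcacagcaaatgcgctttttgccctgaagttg
GATA3 first start, chr10:8045083-8045382, plus strand: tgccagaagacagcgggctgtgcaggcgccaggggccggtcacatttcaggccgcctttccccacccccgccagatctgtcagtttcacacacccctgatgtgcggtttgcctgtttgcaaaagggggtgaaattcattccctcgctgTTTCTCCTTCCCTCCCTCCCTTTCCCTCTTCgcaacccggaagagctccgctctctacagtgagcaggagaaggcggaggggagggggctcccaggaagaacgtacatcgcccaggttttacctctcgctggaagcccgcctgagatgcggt
GATA3 last start, chr10:8060207-8060506, plus strand: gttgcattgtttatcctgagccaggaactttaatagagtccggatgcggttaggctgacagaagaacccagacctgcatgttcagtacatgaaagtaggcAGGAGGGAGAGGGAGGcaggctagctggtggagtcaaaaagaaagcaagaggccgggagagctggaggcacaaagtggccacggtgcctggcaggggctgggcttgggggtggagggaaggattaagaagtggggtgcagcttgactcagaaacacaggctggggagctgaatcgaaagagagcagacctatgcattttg
GATA2 inner start, chr3:128488481-128488780, minus strand: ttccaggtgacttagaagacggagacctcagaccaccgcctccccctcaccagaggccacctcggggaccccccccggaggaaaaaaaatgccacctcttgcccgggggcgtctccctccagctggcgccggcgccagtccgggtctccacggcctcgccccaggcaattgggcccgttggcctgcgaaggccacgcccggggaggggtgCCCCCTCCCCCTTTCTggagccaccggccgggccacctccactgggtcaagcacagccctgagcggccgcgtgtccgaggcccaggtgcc

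The GATA3 window at the first start held the longest run, 31 pyrimidines, and 0.886% of the 35097 promoter windows in the table held a run as long. No captured region of any oligo overlapped that window. The GATA6 run was 22 pyrimidines, matched or passed in 3.96% of windows. The GATA6-AS1 run was 17 purines (12.0% of windows), and the last GATA3 start and the inner GATA2 start had runs of 16 (15.4% of windows). The median window had a longest run of 11. Windows not printed, at the other GATA3 starts and the outer GATA2 start, had longest runs of 10 to 14. A captured region of GATA6-AS TFR1 lay 160 bp from one of these GATA3 starts, chr10:8053641, whose window had a run of 10. A run of 10 was matched or passed in 72.0% of windows and one of 14 in 25.9%. GATA6 held both of the short motifs searched on either strand, GAGAGA, found in 22.4% of windows, and GGAGGA, found in 36.6%. GATA6-AS1 and the inner GATA2 window held GGAGGA and not GAGAGA, and neither GATA3 window shown held either. The motifs can overlap the marked runs, and a match describes only the letters of the window.

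The GATA6 locus held few regions and these differed by oligo, but such counts were common among genes of like span. GATA6 (chr18:22169589-22202528, 32.9 kb, plus strand) and GATA6-AS1 (chr18:22166898-22168968, 2.07 kb, minus strand, lncRNA) start 621 bp apart and are read in opposite directions. GATA6-AS TFR1 had 1 captured region inside GATA6-AS1, chr18:22167751-22168100, with a log2 ratio of 1.04, or 2.05-fold. That is a low value for the list: 17.8% of its captured regions were at or below it. The region lay 868 bp downstream of the GATA6-AS1 start and 1489 bp upstream of the GATA6 start, and thus outside both promoter windows printed above. A further GATA6-AS TFR1 region, chr18:22166001-22166350 (log2 ratio 1.24), lay 548 bp past the far end of GATA6-AS1. No region of this oligo lay inside GATA6, and 25.1% of 19122 autosomal protein-coding genes were as far from its nearest captured region or farther. Of 2250 genes with a span like that of GATA6, 26.3% had no captured region of GATA6-AS TFR1. For MEG3 TFR2 35.3% had none, and for MEG3 TFR1 67.5% had at least 1. Of 1386 lncRNA genes with a span like that of GATA6-AS1, 25.0% had at least 1 of GATA6-AS TFR1. For MEG3 TFR1 and MEG3 TFR2, 84.6% and 87.3% of those lncRNA genes had none.

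The highest ratio at the locus belonged to a MEG3 oligo. MEG3 TFR1 captured chr18:22170001-22170200 with a log2 ratio of 2.75 (6.75-fold), at percentile 97.8 of its list. It lay inside GATA6, 412 bp downstream of the start. The next MEG3 TFR1 regions were 1373 bp and 1823 bp past the far end of GATA6, with log2 ratios of 1.21 and 1.56. MEG3 TFR2 had no region inside either gene, and its nearest, chr18:22163651-22163900 (log2 ratio 1.23), lay 2998 bp from GATA6-AS1 and 5689 bp from GATA6. So the 3 oligos had no captured region in common in this pair of genes. A control region at chr18:22153501-22153800, where recovery was lower with the oligo, stood in both MEG3 lists at -1.94 and -1.60, and the lists share the no-oligo libraries.

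By the authors' names alone the locus looked emptier still. No region in any list named GATA6 or GATA6-AS1 as overlapped. The regions that named them named them as flanking: GATA6 for a GATA6-AS TFR1 region 74189 bp away (log2 ratio 1.26) and a MEG3 TFR1 region 21789 bp away (1.14), and GATA6-AS1 for captured regions of GATA6-AS TFR1 (1.15, 72748 bp away), MEG3 TFR1 (1.68, 51848 bp) and MEG3 TFR2 (1.23, 2998 bp) and for the shared control region. The captured region inside GATA6-AS1 carried the name RP11-627G18.1, and the one inside GATA6 the name RP11-627G18.2, both marked as flanking.

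**Figure D1:**
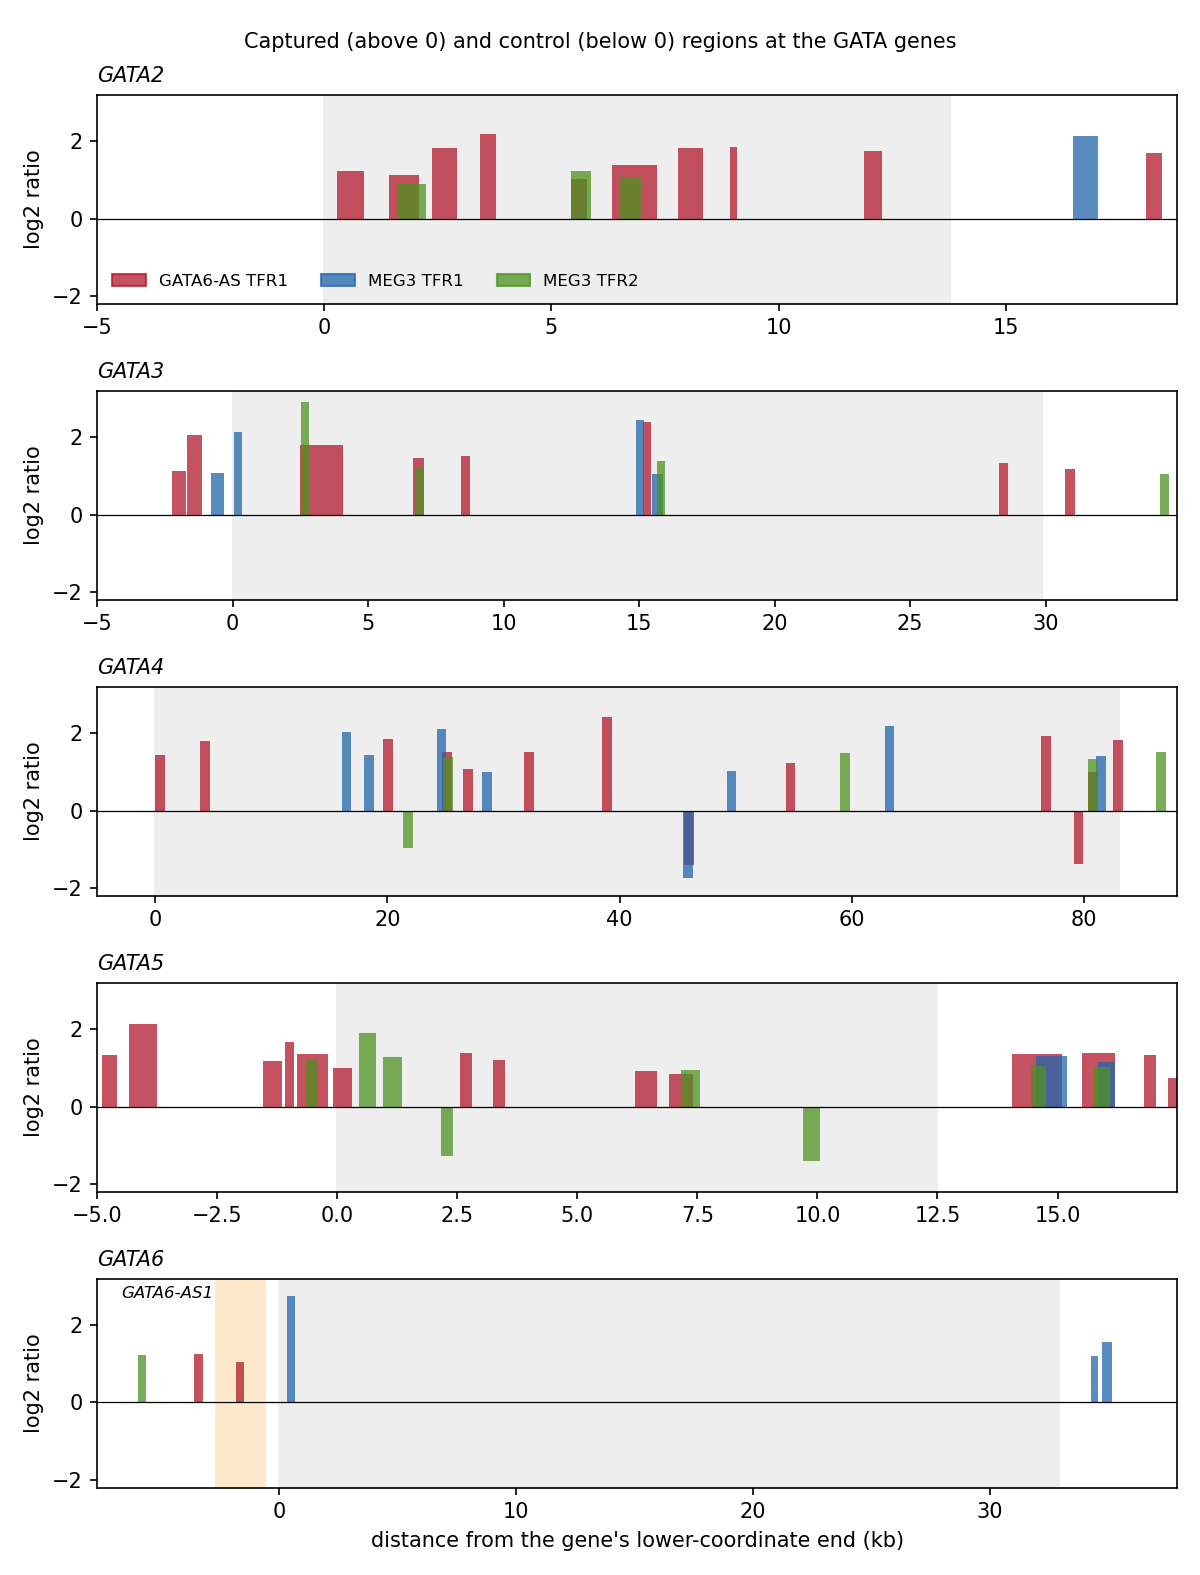
Captured and control regions from 5 kb below to 5 kb above each gene (below GATA6-AS1 in the GATA6 panel), plotted by distance in kb from the lower-coordinate end of the gene, with the authors' log2 ratio as height (captured above 0, control below 0) and 1 colour per oligo. Grey marks the RefSeq span, orange GATA6-AS1, and narrow regions are drawn wider than they are so that they can be seen. GATA2 carries 9 GATA6-AS TFR1 regions and GATA6 a single MEG3 TFR1 region near its start.

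GATA2 (chr3:128479422-128493201, 13.8 kb, minus strand) was densely captured by GATA6-AS TFR1. The oligo had 9 captured regions there, covering 33.4% of the span. From low to high coordinates their log2 ratios were 1.23, 1.12, 1.83, 2.19, 1.02, 1.38, 1.82, 1.85 and 1.75. Regions thus ran from near the 3′ end to beyond the inner start, and the highest, chr3:128482851-128483200, was 4.56-fold. Among 2079 protein-coding genes of similar span the median was 1 region, and 2.93% had 9 or more. The surroundings were dense too. Within 100 kb of GATA2 the same oligo had 52 captured regions, reached by 11.5% of autosomal protein-coding genes, where the median was 14. The 8th of the 9 regions, chr3:128488351-128488500 (3.60-fold), ended 30 bp downstream of the inner start and covered 20 bp of the inner promoter window printed above. The authors named GATA2 as overlapped for all 9.

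The MEG3 oligos differed from each other at GATA2. MEG3 TFR2 had 3 captured regions, with log2 ratios of 0.89, 1.23 and 1.08, all below the median of that list, 1.44. Each overlapped a GATA6-AS TFR1 region by 350 to 500 bp. MEG3 TFR1 had no region inside GATA2. Its nearest, chr3:128495901-128496450, lay 2700 bp upstream of the outer start with a log2 ratio of 2.13 (4.37-fold), and 29.9% of protein-coding genes were as far or farther from that list. No control region lay inside GATA2 for any oligo.

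GATA3 (chr10:8045333-8075198, 29.9 kb, plus strand) was captured by each of the 3 oligos, and several regions lay at its starts. MEG3 TFR1 had regions at chr10:8045401-8045650 (log2 ratio 2.13), 68 bp downstream of the first start, at chr10:8060301-8060450 (2.46, 5.50-fold) and at chr10:8060801-8061200 (1.06). The second of these was 150 bp wide and lay wholly within the promoter window of the last start, printed above, ending 7 bp before the start. GATA6-AS TFR1 had regions of 1.79, 1.47, 1.51, 2.41 and 1.34 in order of coordinate, and the one of 2.41 (5.30-fold), chr10:8060501-8060750, began 44 bp downstream of the same start. So these oligos had high regions on either side of the last GATA3 start, 50 bp apart, without overlapping.

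Upstream of the first GATA3 start, GATA6-AS TFR1 had regions 1133 bp (log2 ratio 2.07) and 1733 bp (1.12) away and MEG3 TFR1 one 333 bp away (1.08). These regions named TAF3 with GATA3-AS1, or genes with clone names such as RP11-379F12.3, and not GATA3. Farther upstream, a GATA6-AS TFR1 region 8933 bp away (1.23) did name GATA3 as flanking. The nearest control region to GATA3, of GATA6-AS TFR1, was 6303 bp past its far end (-1.69).

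MEG3 TFR2 had log2 ratios of 2.90, 1.21 and 1.38 inside GATA3. The first, chr10:8047851-8048150 (7.47-fold), was at percentile 98.6 of its list and lay inside the broad GATA6-AS TFR1 region chr10:8047801-8049400. The highest ratio of any region naming a member was also its own: chr10:8133601-8133750, 11.2-fold (log2 ratio 3.48), 58403 bp past the far end of GATA3, which was named as the gene before it. Its 5 GATA6-AS TFR1 regions were matched or passed by 25.4% of 2260 genes of like span, its 3 of MEG3 TFR1 by 32.1% and its 3 of MEG3 TFR2 by 24.5%.

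GATA4 (chr8:11676935-11760002, 83.1 kb) was the longest member and held the most regions. GATA6-AS TFR1 had 11 captured regions there, with log2 ratios from 1.01 to 2.42 and the highest at chr8:11715701-11716000 (5.35-fold). MEG3 TFR1 had 7, with ratios of 2.04, 1.43, 2.12, 1.00, 1.03, 2.20 and 1.40 in order of coordinate. MEG3 TFR2 had 3, close together in size at 1.39, 1.49 and 1.33. Per 10 kb of span that is 1.32, 0.843 and 0.361 regions, against 6.53 of GATA6-AS TFR1 at GATA2. At least as many captured regions as at GATA4 lay in 12.7%, 16.4% and 39.2% of 1652 genes of like span. GATA4 was also 1 of 2 members with control regions inside. One control locus, chr8:11722751-11722950 for MEG3 TFR1 (-1.74) and chr8:11722751-11723100 for GATA6-AS TFR1 (-1.40), was shared, and single control regions of -1.38 (GATA6-AS TFR1) and -0.97 (MEG3 TFR2) lay elsewhere.

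GATA5 (chr20:62463497-62475995, 12.5 kb) lay in the densest neighbourhood, by a wide margin for GATA6-AS TFR1 only. Within 100 kb of it GATA6-AS TFR1 had 97 captured regions, a number reached by 0.356% of autosomal protein-coding genes, where the median was 14. MEG3 TFR1 and MEG3 TFR2 had 29 each, reached by 14.2% and 6.61% of genes. Inside the gene GATA6-AS TFR1 had 5, with modest log2 ratios of 1.00, 1.40, 1.21, 0.91 and 0.84, and 1 of them above the list's median of 1.34. At least as many were found at 19.05% of 2000 genes of like span. MEG3 TFR2 had 3 inside, at 1.90, 1.29 and 0.94, and also 2 control regions, at -1.29 and -1.42. At least as many control regions were found at 0.45% of 2000 genes of like span, and at least as many captured regions at 14.35%. MEG3 TFR1 had none inside, its nearest being 2056 bp away at 1.29. Just below the lower-coordinate end GATA6-AS TFR1 had regions 197 bp, 897 bp and 1147 bp away, with ratios of 1.37, 1.67 and 1.17, and MEG3 TFR2 one 397 bp away (1.21). Above the other end all 3 oligos had regions, beginning 1556 bp away for GATA6-AS TFR1 (1.37), 1956 bp for MEG3 TFR2 (1.06) and 2056 bp for MEG3 TFR1. These 3 regions overlapped one another. So did a further region of each oligo, beginning 3006 bp, 3256 bp and 3356 bp away in the same order. On the lower-coordinate side, 12497 bp from the gene, GATA6-AS TFR1 (2.08) and MEG3 TFR2 (2.20) overlapped at chr20:62450651-62451000.

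GATA6 had the fewest captured regions nearby of the protein-coding members for GATA6-AS TFR1 and MEG3 TFR2, though such counts were common. GATA6-AS TFR1 had 6 captured regions within 100 kb of GATA6, and 29.4% of autosomal protein-coding genes had 6 or fewer. The counts were 12 for MEG3 TFR1, equal to the median of 12, and 5 for MEG3 TFR2, against a median of 10. For MEG3 TFR2, 30.0% of genes had 5 or fewer. GATA5 had 97, 29 and 29 in the same order, GATA2 52, 28 and 28, GATA4 28, 22 and 16, and GATA3 16, 12 and 9.

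**Figure D2:**
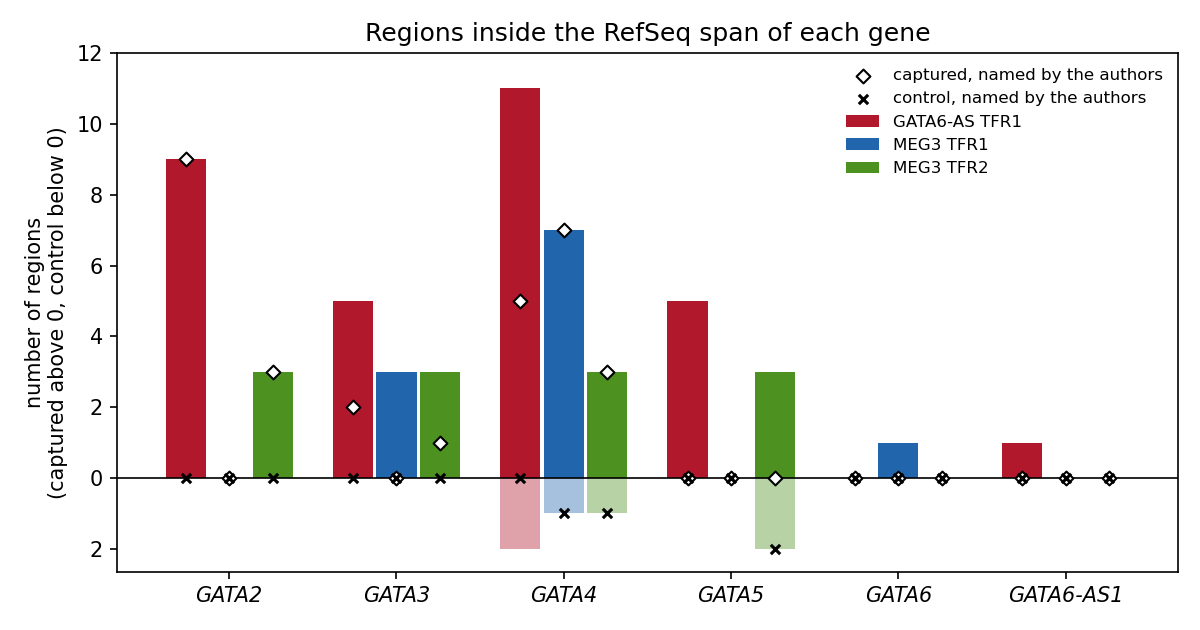
Number of captured (bars above 0) and control (pale bars below 0) regions inside the RefSeq span of each gene for the 3 oligos. Diamonds and crosses give the captured and control regions that the authors named as overlapping that gene: at GATA2 and for both MEG3 oligos at GATA4 the 2 counts are equal, while at GATA3, GATA5, GATA6 and GATA6-AS1 the bars stand above the diamonds.

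Over the 6 genes, the authors' names gave 16 captured regions for GATA6-AS TFR1 at 3 members, 7 for MEG3 TFR1 at 1 member and 7 for MEG3 TFR2 at 3 members. In the same lists 48.0%, 41.7% and 40.1% of autosomal protein-coding genes were named as overlapped. Control regions named 0, 1 and 2 members, with 30.2%, 18.2% and 16.7% of genes named. By RefSeq spans the captured regions numbered 31, 11 and 12, at 5, 3 and 4 of the 6 members. The shares of protein-coding genes overlapped were 69.9%, 62.6% and 59.3%, and among the 8998 with spans between the shortest and longest protein-coding member 73.0%, 67.7% and 64.0%. For lncRNA genes, the class of GATA6-AS1, the shares were 37.8%, 35.9% and 32.0%. Control regions lay in 1, 1 and 2 members, against 40.0%, 21.3% and 19.4% of genes. Within 1 kb of either gene end, 5, 2 and 1 members had a captured region, against 48.8%, 29.4% and 23.2% of protein-coding genes. The 5 include GATA6-AS1, and no share of lncRNA genes was computed for this measure. With 6 genes these counts cannot be told from the shares over all genes.

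The names and the positions disagreed, and what the names mean is not settled. Of 60 regions inside the members' spans, 34 named the member as overlapped, 2 named it as flanking and 24 did not name it. Inside GATA5 the 5 successive GATA6-AS TFR1 regions carried C20orf166-AS1, MIR1-1HG, MIR1-1, MIR133A2 and no name, all marked as genes further along the chromosome. At chr8:11722751 the GATA6-AS TFR1 control region was named for C8orf49 and the MEG3 TFR1 control region for GATA4. Over all protein-coding genes whose symbols the authors used, 72.9% to 74.5% of the captured regions inside a gene named that gene. In the control lists 77.0% to 85.2% did. At the members it was 30 of 54 captured regions (55.6%) and 4 of 6 control regions. How the names were assigned is not given here. Names of overlapped genes held up by position: all 34 at the members lay inside the named gene, as did 90.5% to 92.4% of such names of protein-coding genes in the 6 lists. Flanking names are less certain. Of the 42 flanking regions outside their member, 17 had no other RefSeq gene wholly between and 35 no protein-coding one, so a flanking name need not be the nearest gene. A count by name as overlapped is a lower count than one by position, most of all for GATA5, GATA6 and GATA6-AS1, whose captured regions all lacked the name.

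**Figure D3:**
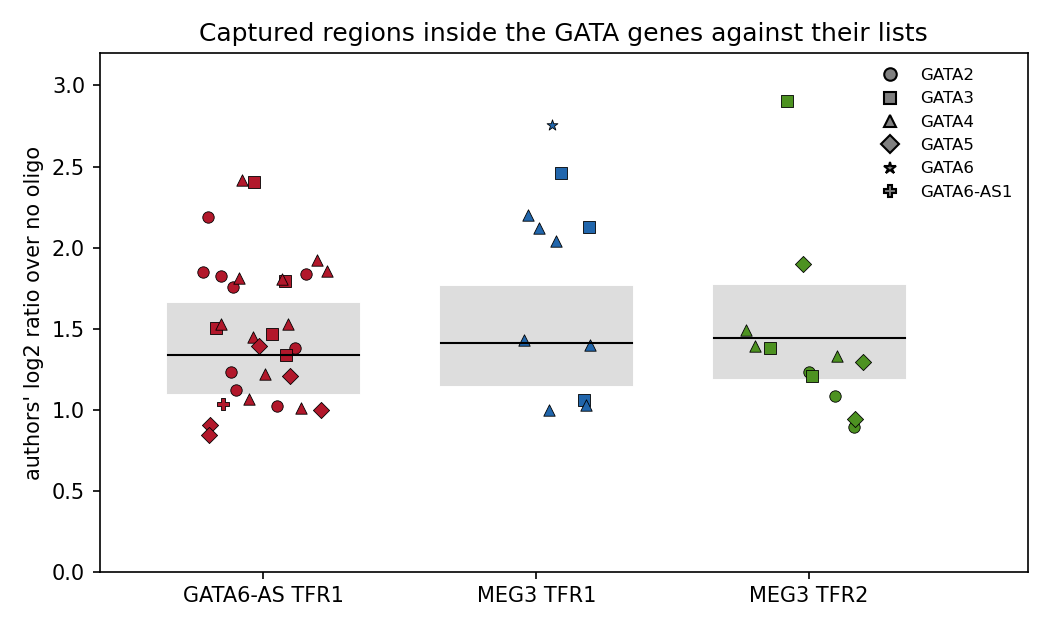
The authors' log2 ratio of each captured region inside a member's RefSeq span, by oligo, with 1 marker shape per gene. The line is the median and the grey box the middle 50% of the oligo's whole captured list, and the points are spread sideways only to be seen. For GATA6-AS TFR1, 20 of 31 points lie above the line, for MEG3 TFR1 7 of 11 and for MEG3 TFR2 3 of 12.

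In size, the ratios at these genes lay on both sides of the medians of their lists. GATA6-AS TFR1 regions inside members had a median log2 ratio of 1.47 (range 0.84 to 2.42) against 1.34 over the list. MEG3 TFR1 regions had 2.04 (1.00 to 2.75) against 1.41, and MEG3 TFR2 regions 1.31 (0.89 to 2.90) against 1.44. The top 10% of each list held 3, 3 and 1 of them. By the authors' names the medians were 1.78, 1.43 and 1.33, so which oligo had the highest median changed with the way of placing regions.

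Captured regions of different oligos met at 9 of 45 loci inside the members (20.0%), and no locus inside a span had all 3. Outside the spans, regions of all 3 oligos did overlap just past the end of GATA5. Over 124780 captured loci inside autosomal protein-coding genes, 17.6% were held by more than 1 oligo and 3.17% by all 3, so the members' share is near that of all genes. The 9 included 3 at GATA2, 3 at GATA3, 2 at GATA4 and 1 at GATA5. All but 1 joined GATA6-AS TFR1 with MEG3 TFR2. The exception was at GATA3, where MEG3 TFR1 (1.06) and MEG3 TFR2 (1.38) overlapped by 200 bp. MEG3 TFR1 and GATA6-AS TFR1 shared none of the 45. Over all such loci, 8.43% were held by that pair, 9.20% by GATA6-AS TFR1 with MEG3 TFR2 and 6.27% by both MEG3 oligos, each with or without the remaining oligo. With so few loci the absence is not read as a result about these genes. The lists were set against the same no-oligo libraries, so shared loci are not independent of each other.

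The lists of GATA partners give the surroundings of these genes, by RefSeq span. Of 6 genes with a related zinc finger, 4, 5 and 4 had a captured region of GATA6-AS TFR1, MEG3 TFR1 and then MEG3 TFR2. GATAD2A, a subunit of the NuRD chromatin complex, had 19, 7 and 13, with highest log2 ratios of 2.75, 1.31 and 2.95, and its paralogue GATAD2B 10, 6 and 3, with 2.37, 3.07 and 2.58. Both also had control regions of GATA6-AS TFR1 and MEG3 TFR1, and GATAD2A had 4 of MEG3 TFR2 as well. The largest control sizes at GATAD2A were 2.28, 1.47 and 2.48 in order of oligo. For MEG3 TFR1 that is larger than its highest captured ratio. GATA1, the erythroid factor, had 1 region, of MEG3 TFR1 (2.05), on the X chromosome. TRPS1, a repressor with a GATA-type finger, had captured regions of the MEG3 oligos (2.66 and 2.10) and control regions of all 3.

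Of 18 cofactors and partner factors, 16, 13 and 10 had a captured region. ZFPM1, or FOG1, a cofactor that binds the GATA zinc finger, had 40 GATA6-AS TFR1 regions in 85.3 kb, against 5 and 8 for the MEG3 oligos, with highest ratios of 2.45, 2.35 and 2.27. TAL1, the blood factor found in complexes with GATA1 and GATA2, had 5, 3 and 2 (highest 2.56, 2.00 and 1.51). RUNX1, another blood factor, had its highest with MEG3 TFR1 at 3.17 (9.00-fold). MEF2C, a muscle and heart factor, had a control region in all 3 lists, with sizes of 5.21, 3.44 and 2.01 on the log2 scale, lower with the oligo in each. It also held 3 captured regions of GATA6-AS TFR1 (highest 1.89) and 2 of MEG3 TFR1 (highest 2.31). ZFPM1 had 1 control region each of GATA6-AS TFR1 and MEG3 TFR2, TAL1 had 1 of GATA6-AS TFR1, and RUNX1 had 1, 2 and 1. FOXA2, an endoderm factor, had no region in any list.

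Of 12 endoderm genes linked to GATA6, 6, 8 and 7 had a captured region. The collagen gene COL4A1, made by primitive endoderm, had 8, 11 and 6 captured and 4, 3 and 2 control regions in order of oligo. For GATA6-AS TFR1 its largest control ratio was larger in size (2.71) than its highest captured one (2.00). COL4A2 had 13, 11 and 11 captured and 5, 0 and 1 control regions, and reached 3.09 (8.50-fold) with MEG3 TFR2. PDX1 (2.41) and SOX17 (1.57) were captured by MEG3 TFR1 alone, and FOXA1 (2.25) by GATA6-AS TFR1 alone. AFP and TTR, genes of the liver and yolk sac, had no region. LOXL2, a protein partner reported for GATA6-AS1, had 10, 9 and 11 captured regions, with highest ratios of 2.07, 2.61 and 1.60, and 2, 1 and 0 control regions. In each list the share of genes with a region is to be read against 69.9%, 62.6% and 59.3% of all protein-coding genes, and long genes hold more regions.

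By the counts in the 6 lists, the protein-coding genes most like GATA2 among those of like span were FGFR3 and CTSD, each differing by 1 region in all, then FGFRL1, 1 of 5 genes at 2 regions apart. FGFR3 had 9, 0 and 4 captured regions. For GATA3, 7 genes were 1 region apart, and MTMR4, KCTD19 and KRT86 were those with the closest highest ratios. SAMD8 was nearest to GATA4 (2 apart) and LAMB2 to GATA5 (2 apart). GATA6, with its single region, had the same counts as 55 genes, of which FGFR1OP2, PPM1K and SSR1 had the closest highest ratios.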

How the data were processed

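The 6 lists were used as the authors deposited them: positions, gene names and 1 value per region, a log2 ratio by its sign and values (positive in captured, negative in control lists). The build was hg38, and the tools BWA 0.7.15-r1140 and FastQC, per the submitters' processing notes. The list names carry a short label from the peak comparison, whose meaning was not stated. The region caller and its settings were not otherwise given in the sources used here, nor how libraries were scaled.

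From these, names were split into overlapped and marked flanking genes, and regions were placed in spans of the RefSeq table of GRCh38.p14 with an overlap of at least 1 bp. Coordinates are counted from 1. Folds are 2 raised to the authors' log2 ratio. The percentile of a region is the share of its list with a ratio of that size or less. Promoter windows came from RefSeq, where GATA4 and GATA5 had no entry. The genes named were all members, up to 3 partner genes per list and oligo with the highest captured ratio, partners with control regions, and up to 3 genes per member with the most similar counts; the text gives a part of the partners, and SOX17, AFP, TTR and FOXA2 were named after their values were seen. Members and lists were chosen with earlier results of these data known. GATA4-AS1 did not match the table. Overlap counting was tested on simulated data. Scripts ran in Python 3.11.15 (matplotlib 3.10.9, numpy 2.4.6, pandas 2.3.3). No test was made, since library values are not in the lists.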

Additional observations from a re-analysis of the deposited data

How the results depend on the processing

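Placing regions by RefSeq span raised the counts, and a higher ratio lowered them. In the order GATA6-AS TFR1, MEG3 TFR1, then MEG3 TFR2, the captured regions went to 31, 11 and 12, both with any overlap and with at least 0.5 of the region inside, and to 45, 17 and 18 with 5 kb added on each side. Members with a region went to 5, 3 and 4 by span, and to 6, 6 and 5 with 5 kb added. A log2 ratio of at least 1.5 left 9, 3 and 0 regions by name, the last at 0 members, and 0 loci of more than 1 oligo. Keeping only the regions above the median size of each list left 4 for MEG3 TFR1 and 1 region at 1 member for MEG3 TFR2. Joining regions within 200 bp moved none of the counts by name.

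Members with a captured region near a gene end were 2 for GATA6-AS TFR1 at a log2 ratio of at least 1.5, and 6 for MEG3 TFR1 and 5 for MEG3 TFR2 with an edge of 5 kb. Median log2 ratios with flanking names included were 1.33, 1.42 and 1.23, and by RefSeq span 1.47, 2.04 and 1.31. The loci of more than 1 oligo were 4 by name and 9 by span. The span-based medians and loci were chosen after seeing the data. The cause of the other changes was not tested.

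No paired analysis was possible because the lists hold no value per library and no fit without a library was run for that reason. Depth, and with it the error of each ratio, is unknown.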

Other observations

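GATA2-AS1, the noncoding gene on the strand opposite to GATA2, starts inside GATA2 and shares 3999 bp with it. It held 3, 3 and 1 captured regions of GATA6-AS TFR1, MEG3 TFR1, then MEG3 TFR2, with highest log2 ratios of 1.90, 2.13 and 1.53. Of these, 1 region of GATA6-AS TFR1 lies in both genes and was counted for GATA2 too. GATA2-AS1 also held a control region in every list. These lay at nearly the same place, beginning at chr3:128502551 for the MEG3 oligos and at chr3:128502601 for GATA6-AS TFR1, with log2 ratios of -1.05 (MEG3 TFR1), -0.98 (MEG3 TFR2) and -1.27 for the other oligo. The 3 lists share the no-oligo libraries. GATA3-AS1 held 1 captured region of GATA6-AS TFR1 (1.47) and 1 of MEG3 TFR2 (1.21), and no control region.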
